A study of Mus musculus with 12 samples.

Results

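The 10 genes followed here in C2C12 cells are known targets that the transcription factor p53 switches on: Mdm2, Eda2r, Ccng1, Trp53inp1, Sesn1, Sesn2, Bax, Bbc3, Zmat3 and Phlda3. They were taken by gene symbol from a fixed list, which was chosen with earlier results of these data known. All 10 were found among the 55385 genes of the deposited count table, and all 10 were among the 15932 genes that passed the filter on low counts. C2C12 is a mouse myoblast line that stops dividing and fuses into multinucleate myotubes when it is differentiated. Total RNA was sequenced from 3 undifferentiated myoblast samples and from 3 samples after 7 days of differentiation into myotubes, with 18335785 to 54083215 counts per library. The labels name no other treatment or genotype for these groups. The line is a model of cultured muscle, and differentiated cultures of it can keep unfused cells. Whether the libraries of a group stem from independent cultures is not stated in the labels. The p-values therefore reflect only how much these libraries vary, and that variation may be technical.

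The protein p53 is kept low in unstressed cells by the ubiquitin ligase Mdm2, which is itself a p53 target, so the pair forms a feedback loop. When p53 is stabilised, for example after DNA damage, it binds response elements in its target genes and raises their transcription. The targets slow the cell cycle, repair DNA, adjust metabolism or start apoptosis. Most also respond to other factors, so their RNA level is not a measure of p53 activity on its own. In bulk samples, fewer cells of a type and less RNA per cell cannot be told apart.

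A p53 response element is built of repeats of a consensus of 10 bases, the p53 decamer consensus, with C and G at fixed places in its core. This consensus reads the same on both strands, so a search of 1 strand covers both. Promoter windows of 250 bases before to 50 after an annotated start (RefSeq, GRCm38.p6) were held for 8 of the 10 genes, all but Trp53inp1 and Zmat3. A decamer with no mismatch lay in the windows of Mdm2, Ccng1, Sesn1 and Bax, 4 of the 8 genes, against 9.55% of 27025 genes with a window. Ccng1 was the only listed gene with 2 adjoining decamers and at most 2 mismatches, a match held by 0.392% of genes. With 0 to 13 bases allowed between the decamers the match was held by Ccng1, Sesn1 and Bax and by 4.71% of genes. The stretch below ends before the outermost annotated start of Ccng1 and is shown because it holds the closest paired match among the listed genes. It is on the minus strand of chromosome 11, chr11:40755310-40755536, and capitals mark the decamers, of which the left has 1 mismatch and the right none:
Ccng1: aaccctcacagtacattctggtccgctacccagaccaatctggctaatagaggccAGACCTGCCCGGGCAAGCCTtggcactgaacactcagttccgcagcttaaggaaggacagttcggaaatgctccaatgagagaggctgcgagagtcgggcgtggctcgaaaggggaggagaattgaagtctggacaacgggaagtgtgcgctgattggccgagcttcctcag

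The other matches are shown with 15 bases on each side, for comparison with the change of each gene. Capitals mark decamers here too, and for a pair only those of the pair with the fewest mismatches. Mdm2 is at chr10:117710920-117710959 on the minus strand, with 1 decamer and no mismatch. Sesn1 is at chr10:41887238-41887290 on the plus strand, before a start inside the gene, with 2 mismatches in the pair. Bax is at chr7:45467064-45467114 on the minus strand, also with 2. Cdkn1a, a p53 target outside the list that is shown as a reference, is at chr17:29090891-29090952 on the plus strand, with 0 mismatches in 2 decamers 12 bases apart:
Mdm2: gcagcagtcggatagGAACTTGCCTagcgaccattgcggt
Sesn1: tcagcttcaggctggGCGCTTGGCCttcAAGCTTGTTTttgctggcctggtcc
Bax: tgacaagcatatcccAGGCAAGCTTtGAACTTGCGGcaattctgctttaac
Cdkn1a: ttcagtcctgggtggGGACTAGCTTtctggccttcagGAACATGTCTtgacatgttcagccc
The Cdkn1a window held 2 pairs within these limits. The pair left unmarked is an adjoining one, since tgacatgttc directly follows GAACATGTCT and has 1 mismatch. All of these are matches of letters and not mapped binding sites. Among the listed genes that hold one, Sesn1 rose, Bax fell, and Mdm2 and Ccng1 were not called in the comparison below. Eda2r, which rose most of the 10 listed genes, had none in its window. Sequence outside the windows was not searched, so elements there would be missed.

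The p53 targets did not move as a block between myoblasts and myotubes. Eda2r, Trp53inp1 and Sesn1 rose, Bax and Zmat3 fell, and Mdm2, Ccng1, Phlda3, Bbc3 and Sesn2 were not called (edgeR quasi-likelihood test, Benjamini-Hochberg adjusted p threshold 0.05 over all tested genes). The 3 of 10 that rose stand beside 20.5% of all tested genes that were called higher, and the 2 that fell beside 19.6% called lower. The groups did not overlap for 5 of the 10 genes, against 55.9% of all tested genes. The median log2 fold change of the 10 was -0.08, and that of all tested genes was 0.06. These counts and the median lie near those of the whole transcriptome.

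**Figure D1:**
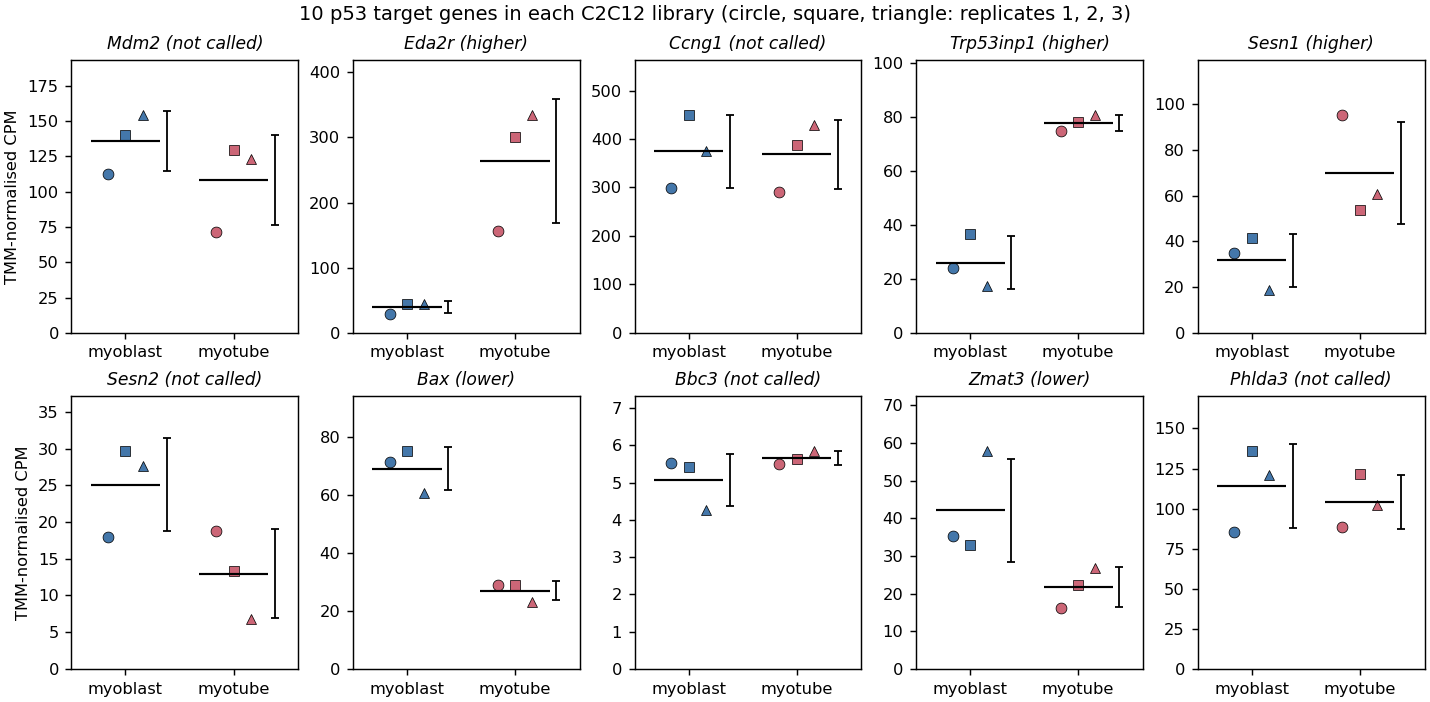
Level of each of the 10 p53 target genes in every C2C12 library, in TMM-normalised CPM (counts scaled to a common library size) on a linear axis from 0. Points are libraries, horizontal bars are group means and vertical bars are ± 1 SD (n = 3). The groups do not overlap for Eda2r, Trp53inp1, Sesn1, Bax and Zmat3, and they overlap for the other 5.

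Before the single genes, 1 library needs a remark. Myotube replicate 1 carried more RNA of cycling cells than the other myotube libraries, with a summed level of 8 cycling-cell markers of 996 CPM against 269 and 220, while myoblasts had 2732 to 2819. All 8 of these markers fell. Its 8 myotube markers summed to 10115 CPM, against 20543 and 23315 in replicates 2 and 3 and 118 to 253 in myoblasts, and all 8 rose. Ttn made up the largest part of that sum, and Myh4 was nearly level at 572, 606 and 637 CPM in myotube replicates 1, 2 and 3. The 6 myoblast markers summed to 1775, 4547 and 3768 CPM in these replicates and to 841 to 1397 in myoblasts. Of those 6, 2 rose (Des and Itga7), 1 fell (Myf5, by -1.76 on the log2 scale) and 3 were not called. The 3 were Myod1, Pax7 and Cdh15, with log2 fold changes of -0.50, -0.64 and 0.64. Des and Itga7 made up the largest part of the sum in every library. Its rise is thus mainly theirs and does not show that RNA of myoblasts rose. Of 12 markers of other cell types, Adipoq, Rbfox3 and Pou5f1 had 0 counts in all 6 libraries. Pdgfra, a receptor of mesenchymal cells, was the only 1 of the 12 to pass the filter. It rose, from 5.06 to 13.8 CPM in myoblasts to 81.0, 28.6 and 31.0 CPM in myotube replicates 1, 2 and 3. The part of these differences in the results was not tested, so results are also given without myotube replicate 1. That library had the lowest myotube level of 7 of the 10 genes and the highest of Sesn1 and Sesn2.

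Among the regulators of p53 in the list, neither Mdm2 nor Ccng1 was called. Mdm2 (ENSMUSG00000020184.15, chr10:117688875-117710758) was at 113, 140 and 154 CPM in myoblast replicates 1, 2 and 3 and at 71.7, 130 and 123 CPM in the myotube replicates. Myotube replicate 1 was the lowest of all 6 libraries, and replicates 2 and 3 lay inside the range of the myoblasts. Each myotube library was below the myoblast library of the same number. The log2 fold change was -0.33 ± 0.25 (SE, 95% interval -0.91 to 0.25, adjusted p = 0.323), and without myotube replicate 1 it was -0.12 (adjusted p = 0.614). With the replicate number as a block it was -0.36 (adjusted p = 0.1325). Over the 13 alternatives its adjusted p was 0.133 to 0.614. Ccng1 (ENSMUSG00000020326.7, chr11:40748552-40755309) encodes cyclin G1, which brings the phosphatase PP2A to Mdm2. It was at 299.7, 450.3 and 376 CPM in myoblasts and at 290.1, 388 and 428 CPM in myotubes, so the groups lay on top of each other. Its log2 fold change was -0.02 ± 0.23, with an interval of -0.56 to 0.51 (adjusted p = 0.939).

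Trp53inp1 (ENSMUSG00000028211.11, chr4:11156441-11174379) encodes a stress-induced protein that promotes p53 phosphorylation and takes part in autophagy. It was at 24.1, 36.7 and 17.2 CPM in myoblasts and at 74.8, 77.9 and 80.7 CPM in myotubes. Every myotube library stood above every myoblast library, and the myotube libraries lay close together, with a coefficient of variation of 3.79%, while the myoblast libraries were spread more widely. The log2 fold change was 1.58 ± 0.27, or 2.99-fold (adjusted p = 0.00287), and without myotube replicate 1 it was 1.59 (adjusted p = 0.00197, with 1.50e-06 to 0.0145 over all 13 alternatives).

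Phlda3 (ENSMUSG00000041801.5, chr1:135766085-135769134) encodes a small protein that competes with the kinase Akt for membrane lipids. It was at 85.2, 136 and 121 CPM in myoblasts and at 88.4, 122 and 102 CPM in myotubes. The myotube values all lay inside the myoblast range (log2 fold change -0.13 ± 0.22, interval -0.64 to 0.37, adjusted p = 0.646). Of the 9 tested partner genes of Phlda3 and Ccng1, among them Akt1, subunits of PP2A and Gak, 1 rose and 2 fell. The shares over all tested genes were 20.5% called higher and 19.6% called lower. Akt1 changed by -0.79 ± 0.21 on the log2 scale (adjusted p = 0.0173) and the PP2A subunit gene Ppp2r5d by -1.13 ± 0.17 (adjusted p = 0.00186). Akt1 lost its call without myoblast replicate 2 (adjusted p = 0.0584) or 3 (0.0552) or myotube replicate 3 (0.0609).

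The largest change among the 10 genes was that of Eda2r (ENSMUSG00000034457.10, chrX:97333837-97377234). It encodes a receptor of the tumour necrosis factor receptor family that binds the A2 form of ectodysplasin and that has been linked to muscle wasting in mice. It was at 29.6, 44.9 and 44.8 CPM in myoblasts and at 156, 299.9 and 335 CPM in myotubes. The lowest myotube library, replicate 1, was still above every myoblast library. The mean rose from 39.8 ± 8.78 to 264 ± 94.8 CPM (SD, n = 3). This was 2.73 ± 0.33 on the log2 scale, or 6.63-fold (adjusted p = 0.000616). Without myotube replicate 1 it was 2.98 (adjusted p = 1.355e-05, with 1.32e-13 to 0.00509 over all 13 alternatives). Of all tested genes, 6.30% had a larger rise.

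The tested partners of Eda2r were not called with all 6 libraries and no block. For its ligand gene Eda the myoblast libraries held 8, 1 and 0 counts and the myotube libraries 4, 3 and 2. Eda did not pass the filter, nor did the related receptor gene Edar and its adaptor gene Edaradd. The signalling genes Traf6, Traf3 and Map3k14 were tested and 0 of the 3 were called by edgeR, with adjusted p of 0.244, 0.150 and 0.127. Of these 3, 0 had an unadjusted p under 0.05, and DESeq2 and limma-voom also called 0. Map3k14 was called higher with the replicate number as a block (adjusted p = 0.04998) and without myotube replicate 1 (0.0233). A pseudogene overlaps the span of Eda2r in the annotation, and a long non-coding RNA gene that of Zmat3. How strand was handled in the counting is not given in the sources used here, and reads of overlapping genes cannot be told apart.

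Of the sestrin genes in the list, Sesn1 rose and Sesn2 was not called. Sestrins hold back the growth kinase complex mTORC1, and Sesn2 does so as a sensor of leucine. Sesn1 (ENSMUSG00000038332.13, chr10:41810574-41908436) was at 34.7, 41.6 and 18.8 CPM in myoblasts and at 95.5, 53.9 and 60.9 CPM in myotubes. All myotube libraries were above all myoblast libraries, with replicate 1 the highest. The log2 fold change was 1.14 ± 0.33, or 2.21-fold (adjusted p = 0.0259). The call was lost without myoblast replicate 1 (adjusted p = 0.0556) or 3 (0.0654) and with scaling by library size alone (0.0501), and it was kept without myotube replicate 1 (0.83, adjusted p = 0.0464). The lowest adjusted p over the alternatives was 0.00466, with DESeq2.

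Sesn2 (ENSMUSG00000028893.8, chr4:132492804-132510456) was at 17.9, 29.7 and 27.7 CPM in myoblasts and at 18.8, 13.3 and 6.84 CPM in myotubes. The groups overlapped only through myoblast replicate 1 and myotube replicate 1, which were nearly level. The log2 fold change was -0.94 ± 0.36 (interval -1.78 to -0.11, adjusted p = 0.0700). It was called lower without myotube replicate 1 (-1.31, adjusted p = 0.0124), with DESeq2 (-0.96, adjusted p = 0.0356), without a filter on low counts (-0.97, 0.0355) and with library size scaling (-1.05, 0.0439). The highest adjusted p over the alternatives was 0.192.

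Within each library the ratio of Sesn1 to Sesn2 counts per kilobase was 1.69, 1.22 and 0.592 in myoblasts and 4.43, 3.54 and 7.77 in myotubes. All myotube ratios exceeded all myoblast ratios. The log2 ratio averaged 0.10 ± 0.78 for myoblasts and 2.31 ± 0.59 for myotubes (SD over 3 libraries each), a difference of 2.21 (exact two-sided permutation test, p = 0.1, the smallest that 3 samples against 3 allow). Sesn3, the paralog that FoxO factors control, rose from 32.1 ± 8.33 to 118 ± 36.8 CPM (SD, n = 3), by 1.88 ± 0.28 on the log2 scale (adjusted p = 0.00158). The shares over all tested genes were 20.5% called higher and 19.6% called lower. Of 13 further tested genes of sestrin and mTORC1 amino acid sensing, a list that leaves out Sesn1 and Sesn2, 2 rose and 0 fell. DESeq2 and limma-voom also called 0 lower, and 0 had an unadjusted p under 0.05 on that side. Without myotube replicate 1, tried after the data were seen, 1 fell, the GATOR2 gene Seh1l (-0.60, adjusted p = 0.0221). The genes of this list that rose were Sesn3 and the lysosomal arginine sensor gene Slc38a9 (1.36 ± 0.19, adjusted p = 0.00135). The GATOR2 genes Mios, Seh1l, Wdr24, Wdr59 and Sec13, to which sestrins bind, were not called with all 6 libraries, with log2 fold changes of -0.26 to 0.34.

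**Figure D2:**
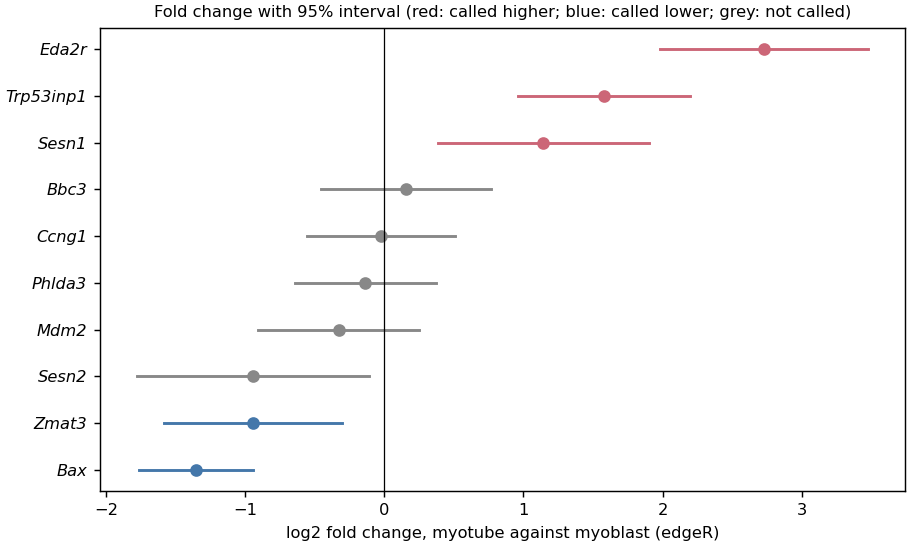
Log2 fold change of each of the 10 genes in myotubes against myoblasts, with its 95% interval from the edgeR fit across all tested genes. Eda2r is the farthest to the right at 2.73 and Bax the farthest to the left at -1.35. The interval of Sesn2 ends just below 0, but its p-value adjusted over all genes was 0.0700.

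Of the apoptosis genes of the list, Bax fell and Bbc3 was not called. Bax (ENSMUSG00000003873.11, chr7:45461695-45466903) encodes a pore-forming protein of the outer mitochondrial membrane. It was at 71.3, 75.2 and 60.7 CPM in myoblasts and at 28.9, 29.0 and 23.1 CPM in myotubes. The groups lay far apart, and myotube replicates 1 and 2 were nearly level. The mean fell from 69.1 ± 7.52 to 27.0 ± 3.37 CPM (SD, n = 3). This was -1.35 ± 0.18 on the log2 scale (adjusted p = 0.000932). It stayed called in all 13 alternatives, with log2 fold changes of -1.48 to -1.27. Of all tested genes, 8.94% had a larger fall.

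Bbc3 (ENSMUSG00000002083.13, chr7:16308398-16318334) encodes PUMA, a protein with only the BH3 motif of its family that frees Bax to act. It was at 5.51, 5.43 and 4.27 CPM in myoblasts and at 5.49, 5.64 and 5.85 CPM in myotubes. The groups overlapped (log2 fold change 0.16 ± 0.27, interval -0.45 to 0.76, adjusted p = 0.658). Its counts of 91 to 330 per library were the smallest of the list.

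The wider apoptosis machinery moved in both directions. Of 16 tested genes of the BCL-2 family and the apoptosome, 4 rose and 6 fell. Tested genes in general moved both ways too, with 20.5% called higher and 19.6% called lower. The BH3-only genes Pmaip1 (NOXA), Bmf and Bcl2l11 (BIM) rose by 1.67 ± 0.37, 5.11 ± 0.46 and 1.09 ± 0.27 on the log2 scale, and the survival gene Bcl2l2 by 0.81 ± 0.17 (adjusted p = 0.00928, 0.000222, 0.0137 and 0.0063). Of the other BH3-only genes in the list, named after their values were seen, Bid fell (-1.15 ± 0.40, adjusted p = 0.04996), a call lost in 7 of 13 alternatives, with adjusted p of 0.0506 to 0.136 in those. Bad and Bik were not called (-0.29 and -0.74, adjusted p = 0.251 and 0.2085). Bmf was at 0.844 to 1.95 CPM in myoblasts and at 76.9, 29.9 and 42.5 CPM in myotubes, with replicate 1 the highest. The effector gene Bak1 changed by -0.94 ± 0.17, its relative Bok by -1.86 ± 0.40 and the cytochrome c gene Cycs by -1.44 ± 0.27 (adjusted p = 0.00339, 0.00825 and 0.00426). Bak1 and Bax, which can each form the pore, were thus both lower in myotubes.

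Bcl2l1, whose main product BCL-XL restrains Bax, was at 62.0, 52.6 and 60.3 CPM in myoblasts and at 37.1, 63.2 and 53.8 CPM in myotubes, with overlapping groups and no call (-0.18 ± 0.22, adjusted p = 0.524). The ratio of Bax to Bcl2l1 counts per kilobase was 3.35, 4.16 and 2.93 in myoblasts and 2.27, 1.34 and 1.250 in myotubes. Each myotube library had a lower ratio than each myoblast library. The mean log2 ratio went from 1.78 ± 0.26 to 0.64 ± 0.47 (SD, n = 3), a difference of -1.14 (exact two-sided permutation test, p = 0.1, the smallest possible).

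Zmat3 (ENSMUSG00000027663.12, chr3:32334792-32365665) encodes a zinc finger protein that binds RNA and acts on splicing and transcript stability. It was at 35.3, 33.0 and 58.0 CPM in myoblasts and at 16.3, 22.4 and 26.9 CPM in myotubes. The groups did not overlap, and myoblast replicate 3 stood above the other myoblast libraries. The log2 fold change was -0.94 ± 0.28 (adjusted p = 0.0280). The call was lost without myoblast replicate 3 (-0.66, adjusted p = 0.0879) or myotube replicate 2 (-1.0015, adjusted p = 0.0565), and was kept without myotube replicate 1 (-0.80, adjusted p = 0.0394). The lowest adjusted p over the alternatives was 0.00328.

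Levels were compared between the genes only per kilobase of the deposited gene length. In myoblasts the order by mean CPM per kilobase was Ccng1 at 107, Phlda3 at 73.2, Bax at 43.8 and Mdm2 at 26.7, followed by Sesn1 at 7.96, Sesn2 at 7.22, Eda2r at 6.75, Trp53inp1 at 4.02, Zmat3 at 3.68 and Bbc3 at 2.39. The ranges of Ccng1 and Phlda3 overlapped, as did those of each neighbouring pair from Sesn1 down to Zmat3, so those neighbours cannot be ordered. In myotubes Eda2r stood at 44.7 CPM per kilobase, in place 3 after Ccng1 at 105 and Phlda3 at 66.7, where it had been in place 7. Its range of 26.5 to 56.8 touched that of Phlda3 and lay above that of Mdm2, which followed at 21.3. Next came Sesn1 at 17.6, Bax at 17.1 and Trp53inp1 at 12.02, then Sesn2 at 3.74, Bbc3 at 2.67 and Zmat3 at 1.91. Mdm2 overlapped Sesn1, Sesn1 overlapped Bax, and Sesn2 overlapped Bbc3, while the ranges of the other neighbours in this order, Phlda3 with Eda2r apart, were separate.

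The gene for p53 itself fell. Trp53 was at 75.1, 74.9 and 90.1 CPM in myoblasts and at 21.6, 31.2 and 30.7 CPM in myotubes. The groups were well separated, and the difference was -1.52 ± 0.20 on the log2 scale (adjusted p = 0.000934, with 7.47e-09 to 0.00555 over the 13 alternatives). RNA level says nothing of the stability of the protein, through which p53 is mainly controlled.

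Its relative Trp63, which encodes p63, a factor that binds similar sequences, went the other way. The myoblast libraries held 4, 3 and 0 counts of Trp63 and the myotube libraries 344, 896 and 604, or 13.3, 29.2 and 35.0 CPM in the myotube replicates. The fitted log2 fold change was 8.75 ± 0.62 (adjusted p = 9.63e-05), with a size that depends on the few myoblast counts. The counts are per gene, so isoforms of p63 with and without the activation domain cannot be told apart. The third relative, Trp73, had at most 1 count in any library.

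Of 19 tested genes in the list of p53 and its regulators, 2 rose (Trp63 and Mdm4) and 6 fell. Over all tested genes, 20.5% were called higher and 19.6% lower. Without myotube replicate 1, tried after the data were seen, the rise of Trp63 was the 1 left. Besides Trp53, the deubiquitinase gene Usp7 fell with all 6 libraries (-0.77 ± 0.18, adjusted p = 0.0106). So did the DNA damage kinase genes Atm (-0.97 ± 0.19, adjusted p = 0.00522) and Atr (-0.66 ± 0.19, 0.0269). The DNA damage kinase genes Chek1 (-3.01 ± 0.30, adjusted p = 0.000316) and Chek2 (-1.26 ± 0.40, 0.0382) completed the 6. The call of Atr was lost without myoblast replicate 2 (0.0604) or 3 (0.0906) or myotube replicate 2 (0.0748) or 3 (0.0904). That of Chek2 was lost without any 1 of the 3 myoblast libraries (0.0822, 0.104 and 0.0640) and without myotube replicate 2 (0.0795) or 3 (0.0994), and with a mean count of 50 asked for (0.0543). Cycling-cell markers fell as well, and their part in the fall of the checkpoint kinase genes was not tested.

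Mdm4, the paralog of Mdm2 that blocks the activation domain of p53, was at 88.8, 63.9 and 84.4 CPM in myoblasts and at 162, 100.2 and 114 CPM in myotubes. It was called higher at the edge of the threshold (0.67 ± 0.23, adjusted p = 0.0496), and the call was lost in 9 of 13 alternatives. These included each of the 6 runs without 1 library, with adjusted p of 0.0516 to 0.177, and without myotube replicate 1 the log2 fold change was 0.41. The ratio of Mdm2 to Mdm4 counts per kilobase was 3.70, 6.40 and 5.32 in myoblasts and 1.28, 3.76 and 3.16 in myotubes. Myotube replicate 2 lay within the myoblast range. The difference of the mean log2 ratios was -1.01 (exact two-sided permutation test, p = 0.2), and without myotube replicate 1 it was -0.54.

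Of 6 tested paralogs of the listed genes, Mdm4, Sesn3, Trp53inp2, Ccng2 and Zmat1 rose and 0 fell, with Phlda1 not called (-1.06, adjusted p = 0.0854). The shares over all tested genes were 20.5% called higher and 19.6% called lower. The call of Mdm4 was lost in 9 of 13 alternatives, as given above, and those of Ccng2 and Zmat1 in some. DESeq2 called Phlda1 lower (adjusted p = 0.0424), as did the fit with the replicate number as a block (0.0127). Zmat1 lost its call without myoblast replicate 2 (0.0818) or 3 (0.0600) or myotube replicate 3 (0.1101). Of the tools, limma-voom called 4 of the 5 rises, and 1 gene had an unadjusted p under 0.05 on the side of a fall. Trp53inp2, an autophagy gene, rose from 15.2 ± 2.92 to 96.7 ± 24.6 CPM (SD, n = 3), by 2.67 ± 0.26 on the log2 scale (adjusted p = 0.00027). Ccng2, the cyclin G2 gene, changed by 1.66 ± 0.42 (adjusted p = 0.0158), with 130, 57.8 and 59.3 CPM in the myotube replicates. Its call was lost without myoblast replicate 1 (0.0503) or 3 (0.0527) and without a filter on low counts (0.0620).

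**Figure D3:**
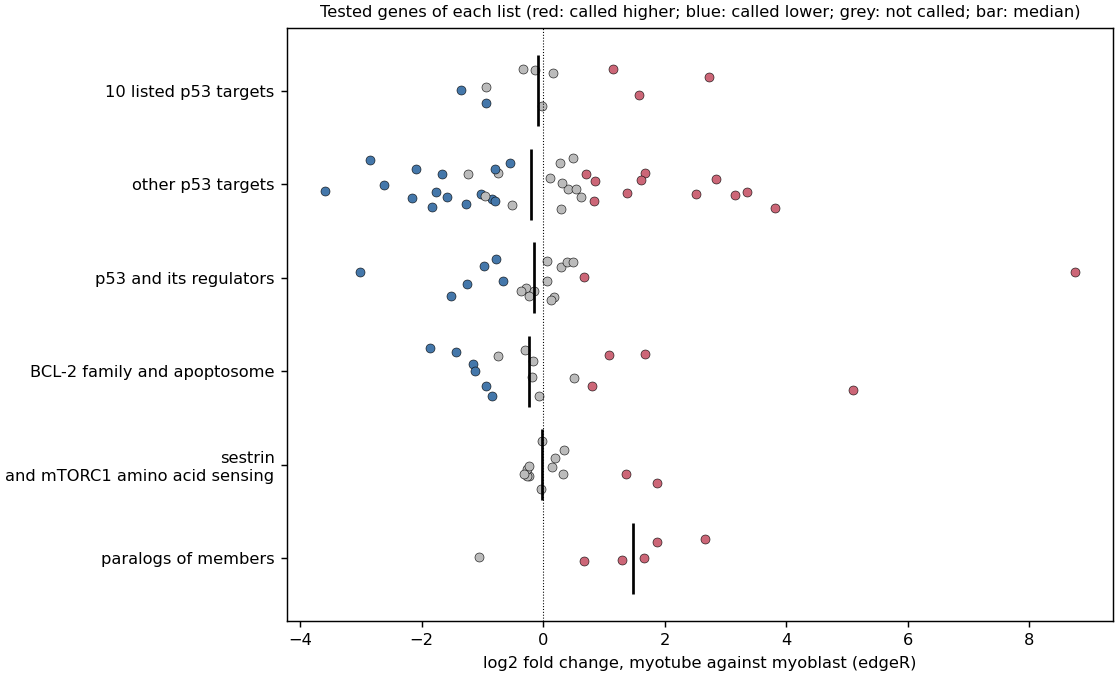
Log2 fold change in myotubes against myoblasts for every tested gene of 6 lists, 1 point per gene, with the median of each list as a bar (vertical scatter within a row has no meaning). The 10 listed targets and the 38 other p53 targets both spread to either side of 0, and the point at 8.75 is Trp63.

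Among 38 other p53 targets, all of which were tested, 11 rose and 15 fell, with a median log2 fold change of -0.20. Over all tested genes, 20.5% were called higher and 19.6% lower. Without myotube replicate 1, tried after the data were seen, 13 rose and 16 fell. The called genes that rose with the highest levels were Thbs1 (thrombospondin, 2.52 ± 0.32, adjusted p = 0.000801), Cdkn1a, Ak1 (adenylate kinase, 0.84 ± 0.19, 0.0101) and Gadd45a (3.82 ± 0.20, 4.39e-05). Cdkn1a, which encodes the cell cycle inhibitor p21, was at 62.0 to 69.0 CPM in myoblasts and at 171, 605 and 622 CPM in myotube replicates 1, 2 and 3 (2.85 ± 0.46, adjusted p = 0.00244). Gadd45a, a stress response gene, was at 11.8 to 15.95 CPM in myoblasts and at 170, 216 and 198 CPM in myotubes.

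Among the called genes that fell with the highest levels were Ckap2, Gtse1 and Pml. Gtse1 and Ckap2 act in mitosis, and they changed by -3.59 ± 0.49 and -2.09 ± 0.54 (adjusted p = 0.00125 and 0.0177). Cycling-cell markers fell with them, as given above. The promyelocytic leukaemia protein gene Pml changed by -0.79 ± 0.23 (adjusted p = 0.0251). Ckap2 lost its call without myoblast replicate 2 (0.0527) or myotube replicate 2 (0.0525) and without a filter (0.1197). Pml lost it without myoblast replicate 1 (0.0573) or 2 (0.0776) or myotube replicate 2 (0.0702) or 3 (0.0808).

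A few more of these targets were picked out after their values were seen. Trp53cor1, the long non-coding RNA known as lincRNA-p21, rose from 0.695 ± 0.340 to 6.44 ± 1.52 CPM, and the death receptor gene Fas from 1.604 ± 0.591 to 16.6 ± 1.05 CPM (SD, n = 3). Their log2 fold changes were 3.16 ± 0.45 and 3.35 ± 0.31 (adjusted p = 0.00135 and 0.000241). The cytokine gene Gdf15 fell from 20.6 ± 5.42 to 3.34 ± 2.77 CPM (SD, n = 3; -2.61 ± 0.54, adjusted p = 0.00727). Direct p53 targets thus stood among both the rises and the falls, in the longer list as in the 10 genes. Tested genes in general did so too.

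**Figure D4:**
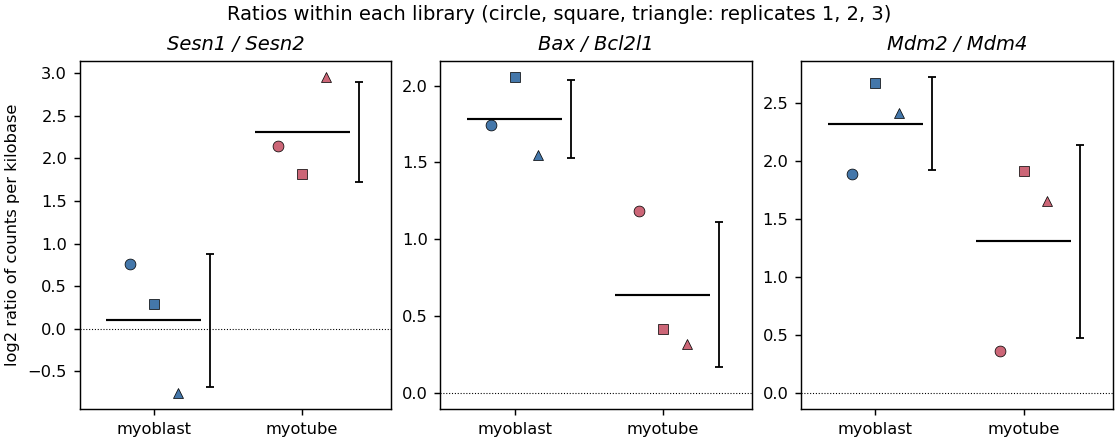
Log2 ratio of counts per kilobase within each library for 3 gene pairs. Points are libraries, horizontal bars are means and vertical bars are ± 1 SD (n = 3). The groups are apart for Sesn1 to Sesn2 and for Bax to Bcl2l1, and for Mdm2 to Mdm4 myotube replicate 2 reaches the myoblast range.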

How the data were processed

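Total RNA of C2C12 cells was sequenced with a stranded total RNA kit, per the labels' protocols. The authors deposited raw counts per gene with gene lengths. Among the tools in the submitters' processing notes are STAR 2.5.1b and featureCounts 1.5.1, with the build mm10 and no roles given. The deposited length column (other values, in bases) came with the counts, per the file headers. The 10 symbols matched 10 reference identifiers, and 54487 of 55385 genes matched in all. The snoRNA tables of stem cells and the normalised table were not used.

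Raw counts of the 6 libraries were fitted with edgeR 4.0.16 (R 4.3.3): TMM scaling, filterByExpr by group, robust quasi-likelihood F-test, no covariate. SE is the absolute log2 fold change over the square root of F, and 95% intervals use the fit's degrees of freedom. CPM is TMM-normalised. DESeq2 1.42.0, limma 3.58.1 (voom), other scalings and filters, a replicate block and leaving out each library gave 13 alternatives.

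The members, lists and tests were chosen with earlier results of these data known. The named genes were the 10 members, called regulators, and up to 4 called genes per direction and list by level; some of these are not reported here. Other genes with values, such as Bid, Zmat1, Phlda1, Fas, Gdf15 and Trp53cor1, were chosen after their values were seen. No pair of libraries of a group agreed within sampling noise (chi-square per degree of freedom at least 94.4). Same-numbered libraries deviated together (correlations 0.238, 0.145 and 0.201, each above 0.1). The numbers, which come from the labels, were therefore tried as a pairing, but only in the replicate block and the within-pair tests of the ratios. The main edgeR fit and the permutation tests of the ratios were unpaired. The pair of myoblast replicate 3 and myotube replicate 2 reached 0.383, more than any same-numbered pair, so the pairing is uncertain.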

Additional observations from a re-analysis of the deposited data

How the results depend on the processing

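Of the 130 results that 13 alternatives gave for the 10 genes, 118 kept their direction and their side of the threshold, 5 lost a call, 4 gained one and 3 changed sign without a call. Eda2r, Trp53inp1 and Bax were called in every alternative run. Ccng1 changed sign under a floor of 50 on the mean count (0.0425), without myoblast replicate 2 (0.11) and without myotube replicate 1 (0.10). Scaling by library size alone moved the median of all genes by -0.12 on the log2 scale, and under it Sesn1 lost its call (0.9969, adjusted p = 0.0501) while Sesn2 gained one (-1.05, 0.0439). Sesn2 was also called by DESeq2 (-0.96) and without a filter (-0.97). Leaving out 1 library gave log2 fold changes of 0.83 to 1.38 for Sesn1, -1.31 to -0.66 for Sesn2, -1.13 to -0.66 for Zmat3 and -0.18 to 0.11 for Ccng1. It gave 2 to 3 of the 10 genes called higher and 1 to 3 called lower, the 1 being Bax without myoblast replicate 3 or myotube replicate 2. The median of the 10 turned positive without myoblast replicate 2 (0.06) or myotube replicate 1 (0.03). Over all alternatives 2430 to 3799 genes were called higher and 2127 to 3678 lower. The cause of these changes was not tested.

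The replicate block gave the same 3 and 2 calls among the 10 genes and added calls for Map3k14 (adjusted p = 0.04998) and Phlda1 (0.0127). Its 3561 higher and 3322 lower genes compare with 3264 and 3122 without it. Within same-numbered pairs the differences of the log2 ratios were 2.21, -1.14 and -1.01, with an exact sign-flip p of 0.25 for each, the smallest that 3 pairs allow. Of 416 alternative results for the named genes outside the 10, 375 were on the same side and 41 lost a call. Nearly all of these genes were named because they were called, so few could gain a call. Genes chosen after their values were seen, such as Bid, Zmat1 and Phlda1, are not among them. Bbc3 had the fewest counts of the 10 genes, 91 to 330 per library.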
